A study of Mus musculus with 6 samples.

Results

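The 9 genes described here encode subunits of the ionotropic glutamate receptors and the glutamate transporter GLAST, and were found by their symbols among the 24411 genes counted in each library. They are the AMPA receptor subunit genes Gria1, Gria2, Gria3 and Gria4, the NMDA receptor subunit genes Grin1, Grin2a, Grin2b and Grin2d, and Slc1a3. Sensory epithelium was dissected from the cochlea of C57BL/6N mice at P9, and each library came from 1 pool of 8 cochleae from 4 mice. The 3 Kir2.1-OE pools came from mice heterozygous for Otof rtTA and for the tetO-driven Kir2.1 transgene. The 3 control pools came from littermates that carried Otof rtTA alone. Both genotypes were exposed to doxycycline (DOX), which the mothers received in their drinking water at 0.5 mg/ml during pregnancy and nursing. The Otof promoter drives the DOX-dependent activator in hair cells, mainly inner hair cells (IHCs), and the activator switches on the K+ channel Kir2.1. A pool, not a mouse, is therefore the replicate, and the tissue held hair cells, supporting cells, nerve fibres with their glia, and connective tissue.

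IHCs release glutamate from ribbon synapses onto the afferent terminals of spiral ganglion neurons. The receptors in these terminals are tetramers: AMPA receptors are built from GluA1 to GluA4 and carry the fast current, whereas NMDA receptors need the obligatory subunit GluN1 together with GluN2 subunits. Supporting cells around the IHCs take up the released glutamate through GLAST. The cell bodies of the neurons lie in the spiral ganglion, next to the sensory epithelium. The comparison of genotypes asks how the RNA of these genes differed in tissue in which Kir2.1, a channel that holds cells near the K+ equilibrium potential, was expressed in IHCs.

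Between 35430940 and 38193109 reads were assigned to genes in the Kir2.1-OE libraries and between 37063812 and 41205047 in the controls. Kcnj2, which encodes Kir2.1, had 3612, 3813 and 2213 normalized counts in the Kir2.1-OE pools and 235.8, 228.1 and 226.0 in the controls, so each library followed its label. Markers of hair cells, IHCs, supporting cells, neurons and glia were detected in every library, with none at 0 reads. Values of single pools are given in the order of replicates 1, 2 and 3 throughout. Normalized counts are reads scaled for library size, and they can be compared between libraries but not between genes of different length. A gene was called where edgeR's quasi-likelihood test gave a Benjamini-Hochberg adjusted p-value under 0.05 over 15303 genes and the fold change was above 1.5, which is 0.58 on the log2 scale. Of these genes, 15.5% were called higher and 5.08% lower in the transgenic tissue; without the fold threshold the shares were 27.3% and 23.5%, and with the offsets described next 5.17% and 4.28%. The higher calls made up 75.2% of all calls at both thresholds, or 57.9% with upper quartile scaling. Fold changes across genes leaned with transcript length and GC content, so the 9 genes and the gene lists are also given with offsets for both.

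Of the 9 genes, Grin1 and Gria2 (2 genes) passed both thresholds, each higher in the Kir2.1-OE pools, and none was called lower. Without the fold threshold 4 were higher, the others being Gria3 and Grin2d, and with the offsets 1, Grin1. Of the other 7 genes, 5 were tested and did not pass both thresholds, and Grin2a and Grin2b had too few reads to test. The share of genes called higher was 19.8% among the 3613 genes with a longest transcript of 4000 to 6000 nucleotides, the band that holds 6 of the 9 genes. The median log2 fold change of the 7 tested genes was 0.39, beside 0.01 for all genes tested and 0.21 for that length band; with the offsets it was 0.14, beside -0.08 for all genes. In 5 of the 7 the libraries of the groups did not overlap, which was also true of 61.6% of all genes tested. In bulk tissue fewer cells of a type and less RNA per cell cannot be told apart.

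**Figure D1:**
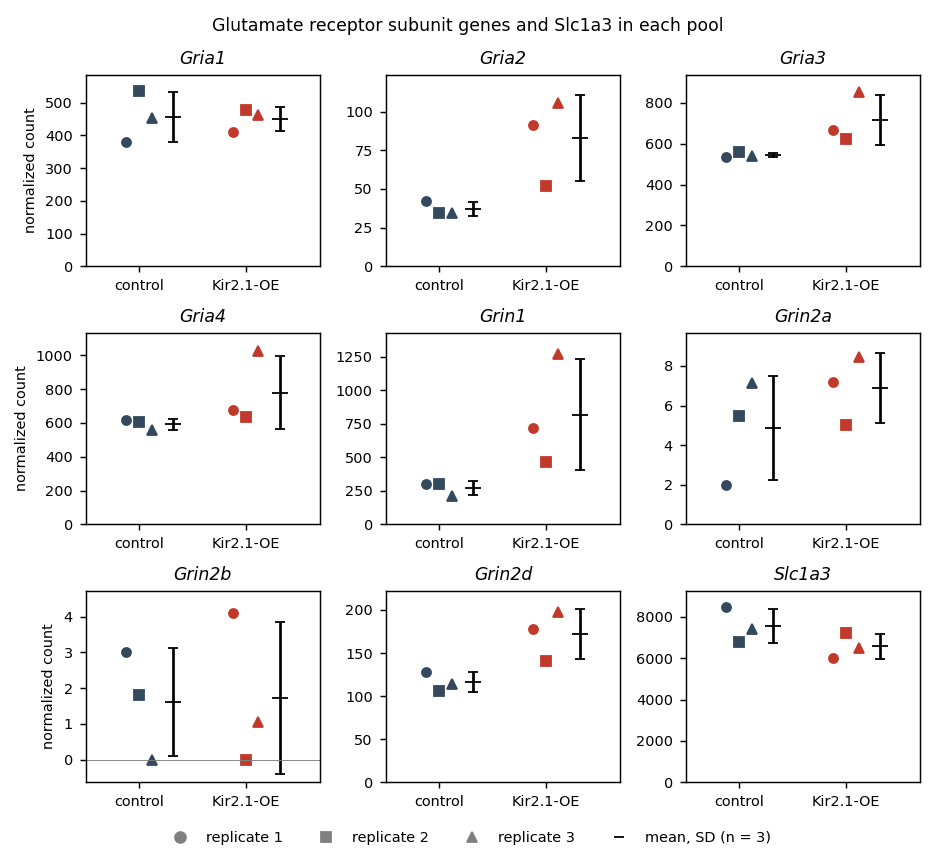
Normalized counts (vertical axis of each panel, from 0) of the 9 genes in the 3 control and the 3 Kir2.1-OE pools; each symbol is 1 pool and the bars give the mean and SD. The groups do not overlap for Gria2, Gria3, Gria4, Grin1 and Grin2d, and replicate 3 is the highest Kir2.1-OE pool in each of those panels.

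Among the AMPA receptor genes, Gria2 was the one called. It encodes GluA2, the subunit that makes AMPA receptors nearly impermeable to Ca2+ once its transcript has been edited, and it lies on the minus strand of chromosome 3 at chr3:80681450-80802835 (mm10, ENSMUSG00000033981.14). Gria2 had 91.4, 52.0 and 105.8 normalized counts in the Kir2.1-OE pools and 42.1, 34.5 and 34.6 in the control pools. Every Kir2.1-OE library was above every control library, although replicate 2 was closer to the controls than to replicates 1 and 3. The mean of 83.0 ± 27.9 (SD, n = 3) against 37.1 ± 4.37 (SD, n = 3) gave a log2 fold change of 1.16 (95% interval 0.49 to 1.83), with an adjusted p-value of 0.0101 by edgeR's quasi-likelihood test. This corresponds to a 2.23-fold higher level (95% interval 1.40 to 3.56). With the length and GC offsets the log2 fold change was 0.70 and the call was lost (edgeR adjusted p = 0.0797). Gria2 has a longest transcript of 10371 nucleotides and a median transcript of 3572, and with offsets taken from the median transcript, an alternative added after seeing the data, the value was 0.99 and the call was kept (edgeR adjusted p = 0.0130).

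Gria3 and Gria4 lay above the highest control in every Kir2.1-OE library, but neither passed both thresholds. Gria3 encodes GluA3 and lies on the X chromosome (chrX:41400854-41678601, plus strand, ENSMUSG00000001986.16). It had 666, 625 and 854 normalized counts in the Kir2.1-OE pools and 537, 558 and 543 in the controls. The controls lay close together and Kir2.1-OE replicate 3 stood above the others. The log2 fold change was 0.39 (95% interval 0.11 to 0.66; edgeR adjusted p = 0.0247), a 1.31-fold difference that is under the fold threshold, and it was 0.26 with the offsets (edgeR adjusted p = 0.129). Xist, the RNA of the inactive X chromosome, is made in females, and it had 0 or 1 read in Kir2.1-OE replicates 1 and 2 and control replicate 1, and between 367 and 826 reads in the other 3 libraries. The part of the sex of the mice in the Gria3 values was not tested.

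Gria4 encodes GluA4, the fastest of the AMPA subunits, and lies at chr9:4417896-4796234 (minus strand, ENSMUSG00000025892.16). Its normalized counts were 674, 633 and 1026 in the Kir2.1-OE pools and 616, 602 and 557 in the controls. Replicates 1 and 2 were thus just above the highest control, and replicate 3 was far above it. The log2 fold change of 0.39 (95% interval 0.01 to 0.77) did not pass the test (edgeR adjusted p = 0.0779). Without Kir2.1-OE replicate 3 it was 0.13, and with the offsets it was 0.14.

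Gria1 encodes GluA1 and lies at chr11:57011387-57330244 (plus strand, ENSMUSG00000020524.16). It had 409, 478 and 461 normalized counts in the Kir2.1-OE libraries and 379, 534 and 454 in the controls, so the groups overlapped throughout. The means were 449.1 ± 36.1 and 455.8 ± 77.5 (SD, n = 3 each). The log2 fold change was -0.02 with a 95% interval of -0.33 to 0.29 (edgeR adjusted p = 0.907), an interval that holds a difference of neither sign beyond the fold threshold. With the offsets it was -0.44 (edgeR adjusted p = 0.0574), and with offsets from the median transcript it was -0.59 and was called lower (edgeR adjusted p = 0.0113).

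The make-up of the AMPA receptor transcripts was compared within each library, as the share of each gene in the summed reads per kilobase of longest transcript. This measure does not depend on the scaling between libraries. In the controls Gria4 made up 36.4% ± 2.45, Gria3 35.1% ± 1.13, Gria1 27.4% ± 3.38 and Gria2 1.20% ± 0.186 (SD, n = 3). In Kir2.1-OE mice the shares were 38.3% ± 3.55, 37.2% ± 0.902, 22.3% ± 3.84 and 2.15% ± 0.564 in the same order. Gria2 was thus the rarest AMPA subunit transcript in every library of both genotypes. Its share was 2.63%, 1.53% and 2.29% in the Kir2.1-OE libraries and 1.41%, 1.05% and 1.14% in the controls, and the share of Gria3 also did not overlap between the groups. With 3 pools against 3 an exact permutation test cannot give a two-sided p below 0.10, which it gave for Gria2 and for Gria3 (0.25 after adjustment over the 10 shares and ratios tested). It gave 0.20 for Gria1 and 0.50 for Gria4 (exact permutation test, adjusted 0.333 and 0.714). The share of Gria2 depends on the length used, and with the median transcript its mean was 5.11% in the Kir2.1-OE pools and 2.92% in the control pools. All these shares pool the RNA of every cell type in the tissue, so they do not give the make-up of receptors at afferent terminals. At a later age, the paper counted puncta of GluA2 protein (there named GluR2) in IHCs and found no significant difference between the genotypes.

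**Figure D2:**
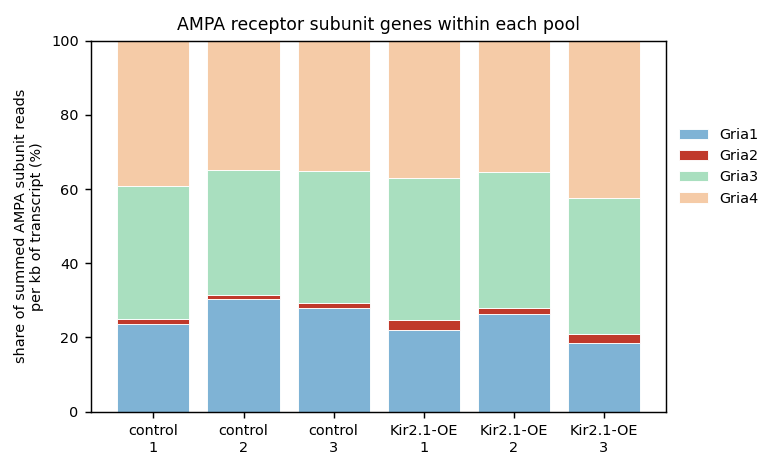
Share of each AMPA receptor subunit gene in their summed reads per kilobase of longest transcript (vertical axis, percent) in each of the 6 pools (horizontal axis); the stacked colours are Gria1, Gria2, Gria3 and Gria4. Gria2 is a thin band of between 1.05% and 2.63% of the total, and the band is thicker in each Kir2.1-OE pool than in any control pool.

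Grin1 had the largest difference between the genotypes among the 7 tested genes. It encodes GluN1, the glycine-binding subunit without which no NMDA receptor forms, and lies at chr2:25291181-25319187 (minus strand, ENSMUSG00000026959.13). The normalized counts of Grin1 were 719.5, 463.7 and 1269 in the Kir2.1-OE pools and 298.0, 298.9 and 207.6 in the controls. The lowest Kir2.1-OE library was above the highest control, and replicate 3 was well over the other Kir2.1-OE libraries. The means were 817.5 ± 412 and 268.2 ± 52.4 (SD, n = 3 each), a log2 fold change of 1.61 (95% interval 0.89 to 2.32) with an adjusted p-value of 0.00277 by edgeR's quasi-likelihood test. Grin1 was therefore 3.04-fold higher in Kir2.1-OE mice, with a 95% interval of 1.85 to 5.004.

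Grin1 also passed both thresholds once the offsets were included, at a log2 fold change of 1.06 (edgeR adjusted p = 0.0174), or 1.01 with offsets from the median transcript. With the offsets and a block for the replicate number together it was 0.96 and was no longer called (edgeR adjusted p = 0.0827). Leaving out any single library gave values from 1.12 (Kir2.1-OE replicate 3 left out) to 1.86 (Kir2.1-OE replicate 2 left out). Grin1 was also the only one of the 7 to pass edgeR's test against a log2 fold change of 0.6, which 5.44% of all genes passed in the higher direction (edgeR adjusted p = 0.0429). That stricter call was lost without any one library other than Kir2.1-OE replicate 2. An annotated antisense gene, Grin1os, overlaps Grin1 and had 0 reads in all 6 libraries, and the strand setting of the counting is not given in the sources used here.

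The 250 bases before the RefSeq start of Grin1 and Gria2 are shown because these were the 2 genes called. Capitals mark TGACG or, from the other strand, CGTCA, letters that form part of the cAMP response element (CRE); the GC box, GGGCGG or CCGCCC, was also searched for and is in neither window. The Grin1 window is chr2:25319188-25319437 and the Gria2 window chr3:80802836-80803085 (GRCm38.p6, minus strand, 5′ to 3′).
Grin1: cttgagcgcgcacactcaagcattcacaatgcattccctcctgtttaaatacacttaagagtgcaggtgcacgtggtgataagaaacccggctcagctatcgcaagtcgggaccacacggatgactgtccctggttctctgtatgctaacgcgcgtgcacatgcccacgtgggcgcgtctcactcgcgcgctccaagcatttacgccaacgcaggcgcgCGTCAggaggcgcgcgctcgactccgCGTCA
Gria2: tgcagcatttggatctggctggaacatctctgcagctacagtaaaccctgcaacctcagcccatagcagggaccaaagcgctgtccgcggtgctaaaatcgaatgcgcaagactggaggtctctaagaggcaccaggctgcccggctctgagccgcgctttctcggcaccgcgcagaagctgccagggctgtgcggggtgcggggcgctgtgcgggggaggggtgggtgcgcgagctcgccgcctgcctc
The Grin1 window held these CRE letters at 2 places near the start of the gene and the Gria2 window at none. Of all 32851 RefSeq promoters, 17.8% held the CRE letters and 32.7% a GC box in the same 250 bases. RefSeq promoters were found for 5 of the 9 genes, Gria2, Gria4, Grin1, Grin2d and Slc1a3. The windows of Gria4 and Grin2d held neither motif, and that of Slc1a3 held each of them at 1 place. G and C made up 58.8% of the Grin1 window and 64.8% of the Gria2 window, beside a median of 52.4% over all promoters.

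Of the GluN2 genes among the 9, Grin2d alone had enough reads to test. It encodes GluN2D, a subunit that gives NMDA receptors slow deactivation and is typical of early development, and it lies at chr7:45831883-45878378 (minus strand, ENSMUSG00000002771.12). It had 177.6, 140.9 and 197.8 normalized counts in the Kir2.1-OE pools and 128.4, 106.3 and 114.0 in the controls. The groups did not overlap, with Kir2.1-OE replicate 2 only a little above the highest control. The log2 fold change was 0.57 (95% interval 0.16 to 0.97; edgeR adjusted p = 0.0268), a 1.48-fold difference just under the fold threshold. It passed that threshold without Kir2.1-OE replicate 2 (0.67) or control replicate 1 (0.64). With the length and GC offsets the direction turned, to -0.35 (edgeR adjusted p = 0.198); G and C make up 65.0% of its longest transcript.

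Grin2a and Grin2b encode GluN2A and GluN2B, the GluN2 subunits of most forebrain synapses. Grin2a (chr16:9567898-9995560, minus strand, ENSMUSG00000059003.12) had 7, 5 and 8 reads in the Kir2.1-OE pools and 2, 6 and 7 reads in the control pools. Grin2b (chr6:135713233-136173511, minus strand, ENSMUSG00000030209.14) had 4, 0 and 1 reads in the Kir2.1-OE libraries and 3, 2 and 0 in the controls. Both genes thus lay within a few reads of 0 in every library, and a difference between the genotypes was not detectable at this depth. A count of 0 allows a share of up to 7.85e-06% of the reads in Kir2.1-OE replicate 2 and 8.09e-06% in control replicate 3, the limit of 3 reads, which covers counting error only. Of the summed reads per kilobase of these 3 GluN2 genes, which leave out Grin2c, Grin2d made up 98.3% ± 0.343 in the Kir2.1-OE pools and 98.1% ± 0.667 in the control pools (SD, n = 3; exact permutation test, two-sided p = 0.60, adjusted 0.75). Grin2a made up 1.44% ± 0.133 and 1.57% ± 0.884 (exact permutation test, n = 3 each, p = 0.90, also 0.90 after adjustment). With Grin2c, the other GluN2 gene, included after seeing the data, Grin2d made up 68.9% ± 2.63 and 71.4% ± 8.05 and Grin2c 29.9% ± 2.59 and 27.2% ± 7.71 in Kir2.1-OE and control pools, and the groups overlapped. The shares depend on the length used. Without Grin2c and with the median transcript, Grin2d made up 89.6% in the Kir2.1-OE pools and 86.8% in the controls. Grin2b then made up 5.91% and 8.44%.

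The AMPA and NMDA subunit genes were then set against each other within each library. The log2 ratio of the summed reads per kilobase of the 4 AMPA genes to those of Grin1, Grin2a, Grin2b and Grin2d was 0.73, 1.28 and 0.42 in the Kir2.1-OE pools and 1.63, 1.82 and 2.06 in the controls. The AMPA sum exceeded the NMDA sum in all 6 libraries, and every Kir2.1-OE library was below every control. The difference of -1.03 gave the smallest two-sided p that an exact permutation test can give with 3 pools against 3 (0.10, adjusted 0.25). With Grin2c, Grin3a and Grin3b added to the NMDA sum after seeing the data, the ratio was 0.31 ± 0.243 and 1.13 ± 0.148 (SD, n = 3 each), and the groups again did not overlap. Grin1 is part of the NMDA sum, so this ratio is not independent of the Grin1 counts.

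Levels of different genes were compared per kilobase of longest transcript. In CPM (reads scaled to a fixed library size) per kilobase, the controls had 2.90 ± 0.152 of Gria4, 2.79 ± 0.0559 of Gria3, 2.19 ± 0.372 of Gria1 and 1.67 ± 0.327 of Grin1 (SD, n = 3). Gria4 and Gria3 did not differ beyond their spread in the controls, nor did Gria1 and Grin1. In Kir2.1-OE mice Grin1 had 5.09 ± 2.57, Gria4 3.81 ± 1.06, Gria3 3.66 ± 0.625 and Gria1 2.16 ± 0.174, and the first 3 of these overlapped. In replicate 2 Grin1 (2.89) was below Gria4 (3.10) and Gria3 (3.20), as it was in the controls, and in replicate 3 it reached 7.91. Grin2d followed at 0.844 ± 0.142 and 0.570 ± 0.0551, and Gria2 at 0.213 ± 0.0716 and 0.0953 ± 0.0112, in Kir2.1-OE mice and controls. Slc1a3 was far above every receptor gene, at 39.5 ± 3.63 in the Kir2.1-OE pools and 45.4 ± 5.01 in the control pools.

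**Figure D3:**
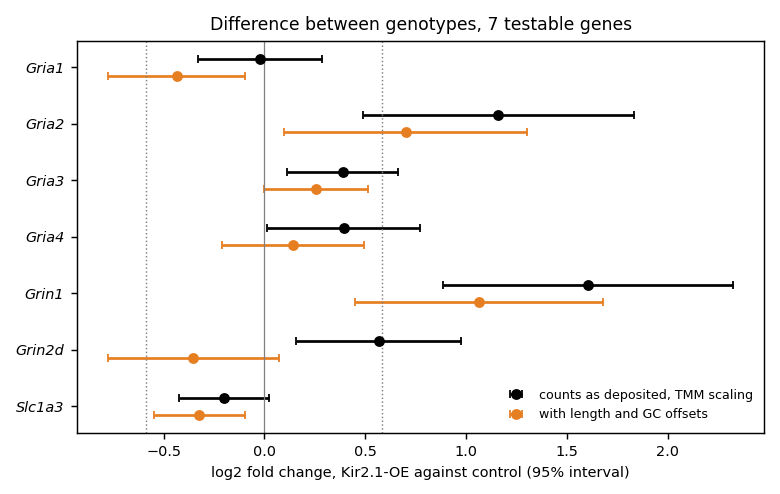
Log2 fold change of the 7 tested genes between Kir2.1-OE and control pools (horizontal axis) with 95% intervals; black points use the counts as deposited with TMM scaling and orange points add offsets for transcript length and GC content, and the dotted lines mark a 1.5-fold difference in either direction. Grin1 is farthest to the right at 1.61 and 1.06, and Grin2d moves from 0.57 to -0.35.

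Slc1a3 encodes GLAST, the Na+-dependent transporter that clears glutamate around the IHCs, and lies at chr15:8634124-8710764 (minus strand, ENSMUSG00000005360.14). It had 6014, 7214 and 6498 normalized counts in the Kir2.1-OE pools and 8440, 6785 and 7423 in the controls. The groups overlapped, since Kir2.1-OE replicate 2 was above control replicate 2. The means of 6575 ± 604 and 7549 ± 835 (SD, n = 3 each) gave a log2 fold change of -0.20 (95% interval -0.42 to 0.02; edgeR adjusted p = 0.122). The adjusted p-value passed 0.05 with the offsets (-0.32, edgeR adjusted p = 0.0401) and with upper quartile scaling (-0.29, edgeR adjusted p = 0.0388), and the difference stayed under the fold threshold in both.

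Slc1a3 was set beside markers of the supporting cells that hold it. Of 10 supporting cell markers, 2 were called higher (Prox1 and Sox9) and 2 lower (Fabp7 and Tectb), and none was at 0 reads in any library; with the offsets 1 was higher and 1 lower. Their summed normalized counts ranged from 211291 to 222843 in Kir2.1-OE mice and from 264292 to 355729 in controls. This sum was thus lower in every Kir2.1-OE library, but Tectb made up most of it. Tectb averaged 140250 normalized counts in the Kir2.1-OE pools against 226519 for the control pools. Gjb2, the next largest, averaged 42080 against 40895. The lower sum therefore mainly followed 1 gene. The mean of the 10 markers on the log2 scale, where each gene counts equally, was 0.05, 0.02 and -0.02 relative to the controls. The log2 ratio of Slc1a3 to the mean of these markers was 0.08 ± 0.148 in the Kir2.1-OE pools and 0.30 ± 0.112 in the control pools (SD; exact permutation test, n = 3 each, two-sided p = 0.20, adjusted 0.333). The part of supporting cell content in the Slc1a3 values was not tested further.

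The receptor genes were set beside markers of spiral ganglion neurons in the same way. Of 14 neuron markers, 10 were called higher and none lower, with a median log2 fold change of 1.20, and none was at 0 reads in any library. Their summed normalized counts ranged from 23893 to 54907 in Kir2.1-OE mice and from 12055 to 19173 in controls. On the log2 scale the neurofilament gene Nefh differed by 2.52 and the RNA-binding protein gene Elavl3 by 2.27, whereas Tubb3 (0.38) and Syt1 (-0.13) were not called. With the offsets 9 were called higher, with a median of 1.14. Of 12 glia markers, 6 were called higher and none lower, with summed counts of 449381 to 569199 against 315357 to 410808. With the offsets 4 of the 12 were called higher. The part of neuron and glia content in the receptor values was not tested.

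Relative to the mean of the controls, the neuron markers averaged 1.19, 0.59 and 1.67 on the log2 scale in the Kir2.1-OE pools. Grin1 was at 1.44, 0.81 and 2.25 and Gria2 at 1.26, 0.47 and 1.47 in the same libraries. All of these were highest in replicate 3 and lowest in replicate 2. The glia markers (0.62, 0.42 and 0.73) and Gria4 (0.19, 0.10 and 0.79) had the same order, so it was not particular to them. Gria1, Slc1a3 and the supporting cell markers did not have it. Against the mean of the neuron markers, Grin1 was 0.35 higher in Kir2.1-OE mice than in controls, and its ranges of -0.59 to -0.22 and -0.93 to -0.68 did not overlap. Gria2 differed by -0.08 on this scale, Grin2d by -0.60, Gria3 by -0.77, Gria4 by -0.79 and Gria1 by -1.16. For all 8 receptor genes together the log2 ratio to the neuron markers was -3.00 ± 0.217 in the Kir2.1-OE pools and -2.39 ± 0.244 in the control pools, a difference of -0.61 (SD; exact permutation test, n = 3 each, two-sided p = 0.10, adjusted 0.25). Over the 6 receptor genes that were tested, a set added after seeing the data, it was -0.51. None of these ratios carries the length and GC offsets. With the offsets the log2 fold change of Grin1 was 1.06, and the median of the 14 neuron markers was 1.14.

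**Figure D4:**
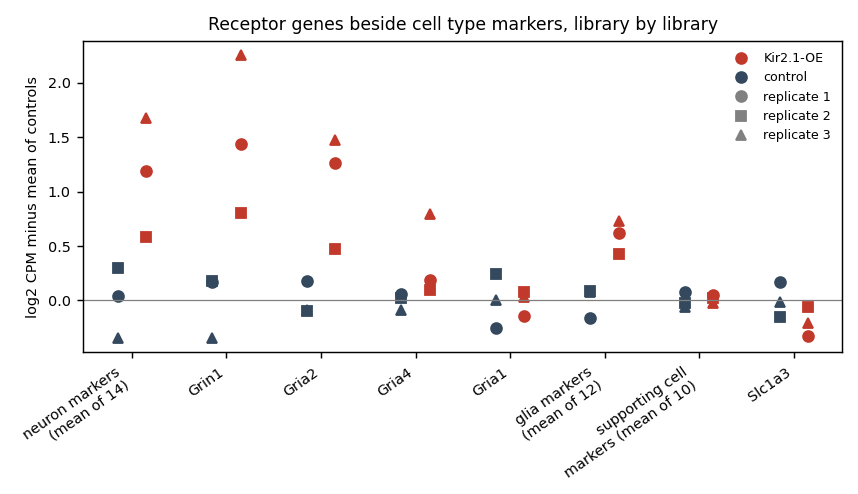
Log2 CPM minus the mean of the 3 control pools (vertical axis) for the mean of 14 neuron markers, Grin1, Gria2, Gria4, Gria1, the mean of 12 glia markers, the mean of 10 supporting cell markers and Slc1a3; each symbol is 1 pool. The Kir2.1-OE pools of the neuron markers, Grin1, Gria2, Gria4 and the glia markers lie in the same order, with replicate 3 at the top and replicate 2 at the bottom.

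The genes whose levels followed those of Gria2 most closely over the 6 libraries were Sept3, Rims3 and Lynx1, with root mean square differences of 0.0929, 0.0983 and 0.106 on the centred log2 scale. For Slc1a3 they were Siae, Slc2a12 and G2e3, at 0.0328, 0.0351 and 0.0365. For Grin1, added after its values were seen, the closest were Hapln4 and Scn4b, at 0.0764 and 0.0890.

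Among all genes tested, 15.5% were called higher and 5.08% lower, or 5.17% and 4.28% with the offsets. These are the shares to set beside each gene list. The other ionotropic glutamate receptor genes were measured in the same fit. Of 10 genes, the kainate receptor gene Grik3 and the NMDA receptor gene Grin3a were called higher and none lower, with a median log2 fold change of 0.46. Grik3 had 198.8 ± 53.0 normalized counts in the Kir2.1-OE pools against 53.7 ± 7.37, a log2 fold change of 1.88 (edgeR adjusted p = 0.000296). Grin3a was at 0.71, and Grin2c at 0.74 did not pass (edgeR adjusted p = 0.0613). Grik1 lay in the other direction, with 150.3 ± 8.56 against 222.2 ± 30.8 normalized counts and a log2 fold change of -0.56 (edgeR adjusted p = 0.0135), just under the fold threshold. With the offsets Grik3 remained called at 0.98, Grin3a was at 0.10 and lost its call (edgeR adjusted p = 0.656), and Grik1 was called lower at -0.68 (edgeR adjusted p = 0.0173). The median of the list was then -0.07. Grik4 (0.12) did not pass the test.

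Proteins that traffic, gate or cluster AMPA and kainate receptors were covered by 19 genes, of which 17 had enough reads. Of these 8 were called higher and none lower, and the median log2 fold change was 0.60. The highest among those with at least 50 normalized counts were Shisa6 (1.76), which keeps AMPA receptors at the synapse, Frrs1l (1.12), which acts in their assembly, and the pentraxin receptor gene Nptxr (0.88). The lowest were Nptx2 (-0.51), Cpt1c (-0.27) and Cnih2 (-0.15), none of which was called. With the offsets 4 were called higher and 1 lower, the median was 0.19, and Nptxr, at 0.19, lost its call (edgeR adjusted p = 0.438).

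The postsynaptic scaffold list had 21 genes, all tested, with 10 called higher, none lower and a median log2 fold change of 0.89. Its median longest transcript was 5713 nucleotides, and 19.8% of all genes with one of 4000 to 6000 nucleotides were called higher. Shank1, a master scaffold of the postsynaptic density, had 376.7, 288.8 and 473.9 normalized counts in the Kir2.1-OE pools and 122.4, 117.2 and 89.6 in the controls. It was thus higher in every Kir2.1-OE library, with a log2 fold change of 1.79 (edgeR adjusted p = 0.000233). Dlgap3 (1.33) was also called, whereas the log2 fold changes of Camk2b (-0.07), Homer3 (-0.04) and Camk2a (0.01) did not pass. With the offsets 4 of the 21 were called higher and the median was 0.12. Shank1 was then at 0.58, just under the fold threshold, and lost its call (edgeR adjusted p = 0.0486), and Dlgap3 at 0.62 kept it.

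Of 12 tested genes of glutamate transport and metabolism other than Slc1a3, 4 were called higher and none lower, with a median log2 fold change of 0.18. Slc17a7, which encodes the vesicular glutamate transporter VGLUT1 of neurons, had 2671, 1899 and 5173 normalized counts in the Kir2.1-OE pools and 1760, 1731 and 1330 in the controls. Kir2.1-OE replicate 3 stood far above all other libraries and the groups did not overlap, with a log2 fold change of 1.01 (edgeR adjusted p = 0.0196). Slc17a6, which encodes VGLUT2, was at 0.97, but its groups overlapped. It had 603.6 ± 302 normalized counts in the Kir2.1-OE pools and 307.7 ± 67.0 in the controls (SD, n = 3 each). The transporter gene Slc1a2, which encodes GLT-1, was at 0.72. Slc17a8, which encodes VGLUT3, the vesicular transporter of IHCs, was at 0.09 and was not called. Slc1a6 (-0.42) and Glud1 (-0.16) were the lowest of the list among genes with at least 50 normalized counts, and neither was called. With the offsets Slc17a7 (0.78) and Slc17a6 (0.93) remained called, Slc1a2 was at 0.02 and lost its call (edgeR adjusted p = 0.893), and the median was 0.01.

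Metabotropic glutamate receptor genes were less abundant: 6 of 8 were tested and Grm8, with under 50 normalized counts, was called higher. Their median log2 fold change was -0.05, and Grm4 (0.32) and Grm7 (0.18) were not called; with the offsets none was and the median was -0.52. All 3 genes of the ADAR family, listed as RNA editing enzymes, were called higher, with a median log2 fold change of 1.42. That median was the value of Adarb2, which had 25.5 normalized counts in the Kir2.1-OE pools and 9.39 in the controls. Its reads summed to 74 over the Kir2.1-OE libraries and 29 over the controls, so its call and this median rest on few reads. Adarb1 encodes ADAR2, the enzyme that edits the Gria2 transcript, and it had 1852, 1132 and 1990 normalized counts in the Kir2.1-OE pools and 471.5, 579.7 and 549.7 in the controls. The groups lay well apart, with a log2 fold change of 1.63 (edgeR adjusted p = 0.000238), and Adarb1 remained called with the offsets at 0.88 (edgeR adjusted p = 0.00244). Adar was at 0.69 and at 0.06 with the offsets, where it was not called. Adarb2 also lost its call with the offsets, at 0.91 (edgeR adjusted p = 0.123), and the median of the 3 was then 0.88. Gene counts do not show how far the Gria2 transcript was edited.

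**Figure D5:**
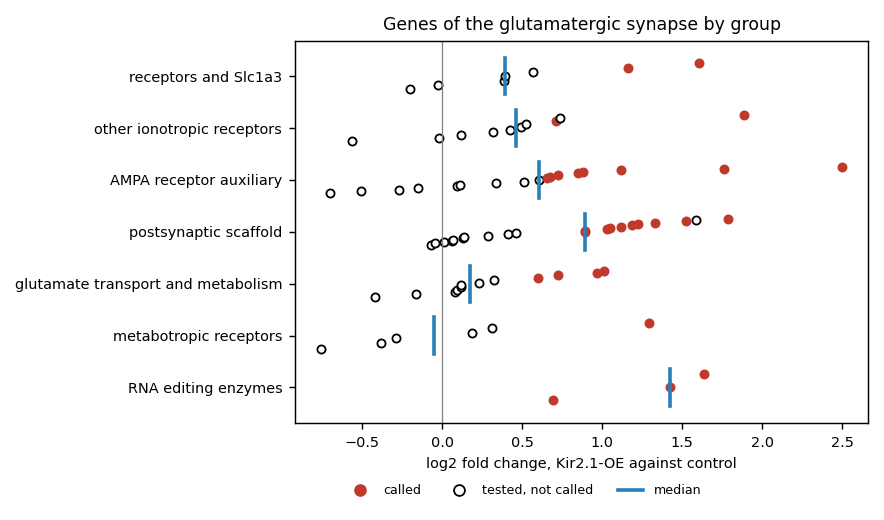
Log2 fold change between Kir2.1-OE and control pools (horizontal axis) for the tested genes of 7 groups of glutamatergic genes; each point is a gene, red points were called, open points were not, and the blue bar is the median of the group. The medians run from -0.05 for the metabotropic receptors to 1.42 for the genes listed as RNA editing enzymes, beside 0.01 for all genes tested. The 1.42 is the value of Adarb2, a gene with few reads.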

How the data were processed

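RNA-seq was performed on 3 Kir2.1-OE and 3 control pools. The authors purified poly(A) RNA, mapped the reads to mm10 with the nf-core RNA pipeline and deposited expected counts per gene from Salmon, which need not be whole and are not scaled for length or depth. Tool versions, annotation and strand setting are not given in the sources used here. The deposited expected counts, of which 6.95% were not whole, were rounded. They were tested with edgeR 4.0.16 in R 4.3.3, using TMM scaling (factors 0.984 to 1.01), filterByExpr, the quasi-likelihood test, glmTreat and Benjamini-Hochberg adjustment over all genes tested. DESeq2 1.42.0 and limma 3.58.1 (voom) were alternatives.

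Length and GC content came from the longest GENCODE vM21 transcript (23376 of 24411 symbols matched directly, 678 through an older symbol). The offsets were loess trends (span 0.4) of each library against the mean library. Levels relative to markers used log2 CPM with a prior count of 2. Libraries of a group differed by more than sampling noise (chi-square per degree of freedom 15.7 to 31.1). The labels do not say that the pools were independent litters, so p-values measure the spread between these pools. Libraries with equal replicate numbers showed no shared deviations, which does not show whether their pools were matched by litter. The count column of control replicate 1 carries the number 4 in its header and was assigned by its title.

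The genes and lists were chosen with earlier results of these data known. Named genes were the 9 genes, Kcnj2, cell type markers, the 3 highest and 3 lowest tested genes with at least 50 normalized counts of each pathway list, and the 3 genes closest to Gria2 and to Slc1a3. Grm8, Adarb2 and the genes closest to Grin1 were named after their values were seen. Some genes that the rule names are not reported here. Marker lists for outer hair cells (2 of 5 higher), fibrocytes (2 of 7 higher), macrophages (0 of 7) and erythrocytes (3 of 5 lower) were also counted.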

Additional observations from a re-analysis of the deposited data

How the results depend on the processing

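The 7 log2 fold changes were recomputed in 119 combinations of gene and setting; 107 kept their direction and stayed called or not called at both thresholds together, and for those that did not the cause was not tested. Among the 107 the adjusted p-value alone crossed 0.05 in some, as for Gria3 and Slc1a3 with the offsets. Offsets for length and GC content left 1 of the 9 genes called higher (791 of all genes), and with these offsets and the replicate block 0 (489 of all genes), where Grin1 was at 0.96 (edgeR adjusted p = 0.0827). Grin2d reversed to -0.35 with the offsets, -0.36 with the block added and -0.23 with offsets from the median transcript. These last offsets, added after seeing the data, called 1 gene lower (Gria1), put Gria4 at -0.044, called 1446 of all genes higher and moved the median of all genes by -0.11. With the replicate block alone 2 of the 9 genes were called, with 2220 of all genes higher and 718 lower. Deviations of same-numbered libraries were not positively correlated (-0.11, -0.23 and -0.21), and no sample correlated best with its own number. These correlations cannot tell whether the pools were matched by litter. With no fold threshold 4 of the 9 genes were higher (4184 of all genes higher, 3590 lower), and upper quartile scaling called 1378 genes lower.

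In the stricter test, 0 of the 9 genes were called with upper quartile scaling or either set of offsets, and between 0 and 2 with 1 library left out. Leaving out each library in turn gave 2 to 3 genes called higher and none lower, with 1878 to 2527 of all genes higher and 536 to 1074 lower. Gria1 ranged from -0.14 to 0.11 and was above 0 without Kir2.1-OE replicate 1 (0.03) or control replicate 2. The difference in share ranged from -0.093 to 3.32 percentage points for Gria4, from -0.62 to 0.23 for Grin2a and from -0.24 to 0.021 for Grin2b, so their directions rest on single libraries. With Grin2c in the sum the difference in the Grin2d share turned to -2.55 percentage points. Other shares and ratios kept their direction. Without a filter Grin2a was at 0.49 (edgeR adjusted p = 0.6002) and Grin2b at 0.08 (edgeR adjusted p = 0.973). The ratio of Grin2a to Grin2b was not run because 2 libraries had no Grin2b read. Genes with few reads and 3 pools a group limit what could be seen.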
